A study of Arabidopsis thaliana with 12 samples.

Results

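Transcripts of 5 nuclear genes for mitochondrial proteins, measured by 5 of the 3439 features of an expression array, are described across 2 light regimes in Arabidopsis thaliana. They encode 2 subunits of respiratory complex I (AT4G02580 and AT5G47890), a subunit of the mitochondrial ATP synthase (AT5G47030), the enzyme that completes ascorbate synthesis (AT3G47930, GLDH) and an oxidoreductase that feeds electrons into ubiquinone (AT2G43400, ETFQO). They were taken by locus from the 692 features that the platform's gene table pairs with exactly 1 gene, and each is measured by 1 feature. All 12 samples were total RNA of wild-type plants of the ecotype C24. In 6 samples the plants had light specific for photosystem I (PSI light) and no inhibitor, and in the other 6 they had light specific for photosystem II together with DCMU, which blocks electron transfer from photosystem II to plastoquinone (PSII light with DCMU). No group had only the light or only the inhibitor changed, so the effects of light and of DCMU cannot be told apart. The labels give neither the tissue, the age of the plants nor the length of the treatment.

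The mitochondrial electron transport chain takes electrons from NADH at complex I and passes them through ubiquinone, complex III and cytochrome c to oxygen, and the ATP synthase uses the resulting proton gradient. Plants add side entries to this chain. ETFQO brings in electrons from the breakdown of branched-chain amino acids and is needed when Arabidopsis is kept in the dark for long. GLDH oxidises L-galactono-1,4-lactone to ascorbate on the inner mitochondrial membrane, hands its electrons to cytochrome c, and is also required for the assembly of complex I. Leaf respiration runs beside photosynthesis, and ascorbate made in mitochondria serves the chloroplast as an antioxidant.

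The deposited values were intensities on a linear scale with an unstated unit. Over all features, the median intensity per sample was 0.542 to 0.584 in the PSI light group and 0.632 to 0.687 in the group with DCMU. Samples 1 and 2, 3 and 4, and 5 and 6 of a group behaved as technical pairs, so each pair was averaged to replicate 1, 2 or 3, and n = 3 per group. Nothing in the labels says that replicates came from separate plants. The p-values therefore reflect only how far these samples differ, which could be technical variation, and the number of arrays limits their precision. Of the 3439 features, 1667 or 48.5% passed an adjusted p of 0.05 (limma, Benjamini-Hochberg over all features), with 26.4% of all features higher in the DCMU group and 22% lower. The 1 measured gene of 14 listed markers of green tissue, the antenna gene LHB1B2 (AT2G34420), had mean intensities of 12.7 ± 0.825 and 10.03 ± 1.25 without and with DCMU (SD, n = 3). Its log2 change of -0.34 ± 0.117 (SE) did not pass (limma, adjusted p = 0.0651). It passed with each sample centred on its median (-0.56, adjusted p = 0.00805) but not after quantile normalization (-0.20, adjusted p = 0.166). This 1 gene does not tell how much green tissue the samples held.

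The genes did not move as a group. Under PSII light with DCMU 1 of the 5 genes rose, the complex I gene AT5G47890, and 2 fell, the complex I gene AT4G02580 and GLDH, while ETFQO and the ATP synthase gene did not pass the test. These 3 calls among 5 stand beside the 48.5% of all features that were called. The median log2 change of the 5 was -0.01, against 0.04 for all features. In bulk RNA, fewer cells with a transcript and less of it per cell cannot be told apart. The order of feature numbers on the array moved with these results. The log2 change of a feature and the median change of the features listed within 10 feature numbers of it correlated at 0.43 across the 3439 features, which share the same arrays. Each gene is therefore given with and without such shared change taken out. Whether the shared change came from the place on the array or from the genes themselves was not tested. Taking it out can therefore also remove real change.

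**Figure D1:**
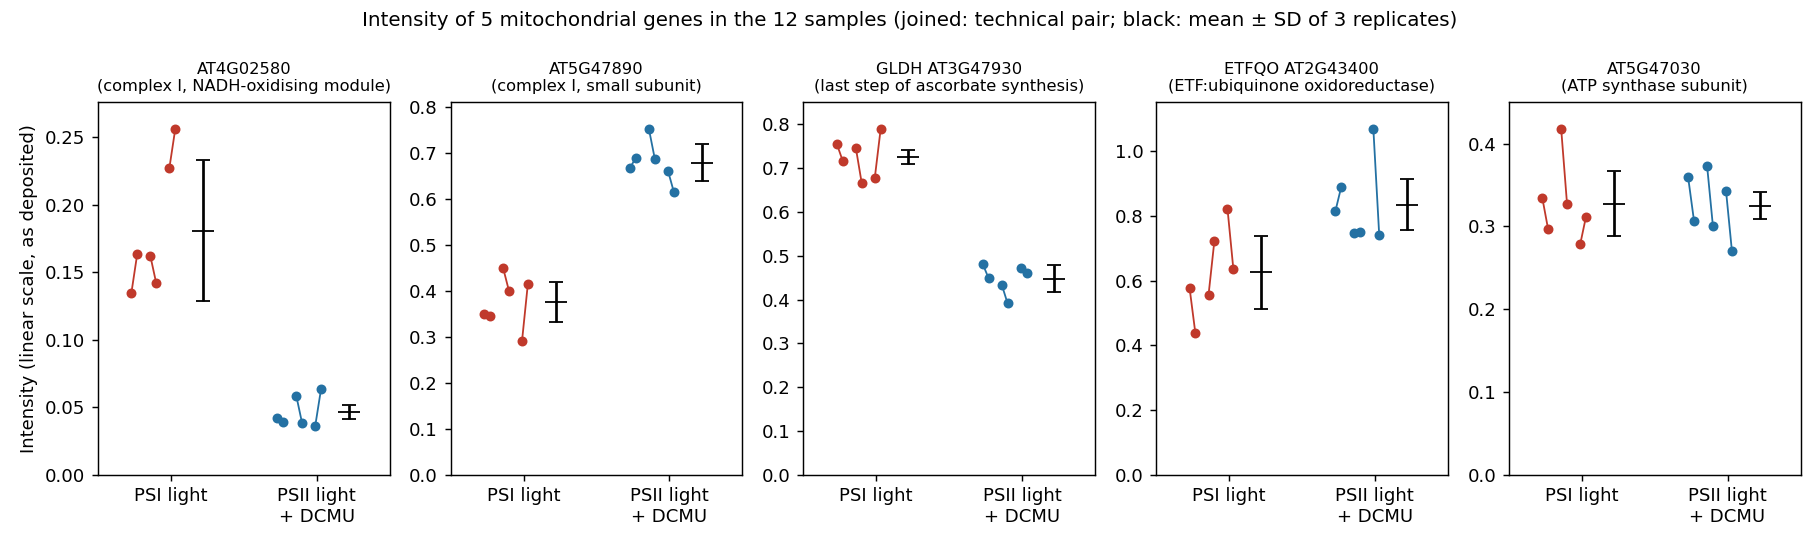
Intensity (vertical axis, linear scale as deposited, starting at 0) of the 5 genes in the 12 samples, with PSI light in red and PSII light with DCMU in blue. Lines join the samples of a technical pair, and black bars give the mean ± SD of 3 replicates. The groups are fully apart for AT4G02580, AT5G47890 and GLDH, and the samples of the groups overlap for ETFQO and AT5G47030. By replicate, the groups did not overlap in 60.9% of all features.

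Complex I takes up NADH through a peripheral arm, and AT4G02580 encodes the subunit called NDUFV2 in mammals, an iron-sulfur protein of the NADH-oxidising module at the tip of that arm. Its intensity in the 6 samples under PSI light had a lowest value of 0.135, a median of 0.163 and a highest value of 0.256. Under PSII light with DCMU the lowest was 0.0362, the median 0.0406 and the highest 0.0636. Every sample under PSI light thus lay above every sample under PSII light with DCMU. By replicate, the groups did not overlap in 60.9% of all features, and no share was computed by sample. By replicate the intensities were 0.149, 0.152 and 0.241 under PSI light and 0.0406, 0.0482 and 0.0499 under PSII light with DCMU. Replicate 3 stood above the other two under PSI light, in both of its samples. The mean was 3.91 times higher under PSI light on the linear scale (0.181 ± 0.0525 against 0.0462 ± 0.00499, SD, n = 3).

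On the log2 scale, with values under a floor of 0.0431 raised to it, AT4G02580 fell by 1.86 ± 0.222 (SE, n = 3; limma, adjusted p = 0.00321). The difference was negative for all 6 sample numbers, from -2.4 to -1.47. In 4 of the 6 samples under PSII light with DCMU the gene lay at or under the floor, so the size of the fall depends on it. With a floor at the 10th percentile of the positive values (0.21), all 6 samples under PSII light with DCMU and 4 of the 6 under PSI light lay under the floor, the change was -0.07 ± 0.0643 and the call ended (adjusted p = 0.454). With the same value as a pseudocount the change was -0.60 ± 0.102 and still passed (adjusted p = 0.00619). A filter on dim features removed the gene, which left no value.

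The 12 features within 10 feature numbers of AT4G02580 had log2 changes of -0.97 to 0.06 with a median of -0.46. Of them 6 fell and 0 rose, though none fell as far as the gene itself. When the neighbours' median deviation was subtracted in each replicate (neighbours taken out), an alternative added after seeing the data, the change was -1.41 ± 0.183 (adjusted p = 0.00387). Feature numbers also repeat a pattern in runs of 3 times 96, and the 12 other features at the same place of a run had a median change of -0.38. The gene lies at place 27. Of the 1108 other features at places 1 to 96, 40.4% fell, against 22% of all features. With place taken out the change was -1.40 ± 0.231 (adjusted p = 0.00953), and with place and brightness taken out it was -1.14 ± 0.251 (adjusted p = 0.0216). Among the 5 genes it was the only one that passed, in 1 direction, both without a correction and under each of these 3 corrections. All 3 started from values raised to the floor of 0.0431, which held for 4 of its 6 samples under PSII light with DCMU. None was run with the floor at the 10th percentile, so the corrected sizes and SEs also depend on the floor.

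AT5G47890 encodes a small accessory subunit of complex I, the counterpart of NDUFA2 in mammals, which sits on the peripheral arm and carries no redox centre of its own. Under PSI light its intensity had a lowest value of 0.292, a median of 0.375 and a highest value of 0.450 over 6 samples. Under PSII light with DCMU the lowest was 0.615, the median 0.677 and the highest 0.751. The groups did not overlap in any sample, and by replicate they did not overlap in 60.9% of all features. By replicate the gene stood at 0.347, 0.425 and 0.354 under PSI light and at 0.678, 0.719 and 0.638 under PSII light with DCMU. Replicate 2 was the highest in both groups. The mean rose 1.81-fold (0.375 ± 0.0431 against 0.678 ± 0.0403, SD, n = 3), which was 0.87 ± 0.102 on the log2 scale (SE; limma, adjusted p = 0.00316), and the difference was positive for all 6 sample numbers (0.57 to 1.18).

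The rise of AT5G47890 kept its call after quantile normalization (0.54 ± 0.0967, adjusted p = 0.00902) and with place taken out (0.93 ± 0.0841, adjusted p = 0.00229). The 12 other features at its place had a median change of 0.02. Its direct neighbours were different. Of the 18 features within 10 feature numbers, 14 rose and 1 fell, their median change was 0.66 and 7 rose by more than the gene. With the neighbours taken out the change was 0.16 ± 0.15, and the call ended (adjusted p = 0.421).

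In the fit without corrections the 2 complex I genes were called in opposite directions. The change of their log2 ratio within a replicate, AT4G02580 over AT5G47890, was -2.73, and the ratios of the groups did not overlap. The same held for 9 of the 10 pairs among the 5 genes, this pair included. Single features did not overlap in 60.9% of the array, and no such share was computed for ratios. An exact two-sided permutation test of 3 against 3 replicates gave p = 0.1, the smallest p this design allows, or 0.111 when adjusted across the 10 pairs that the 5 genes form. The size of this change depends on the floor under AT4G02580. That floor raised samples 1, 2, 4 and 5 under PSII light with DCMU, so it touches all 3 replicates of that group. With the floor at the 10th percentile the ratio changed by -0.93, nearly all of it from AT5G47890. With place taken out the change was -2.33, and with the neighbours taken out it was -1.57, nearly all of it from AT4G02580. The exact permutation p was 0.1 in each of these settings.

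**Figure D2:**
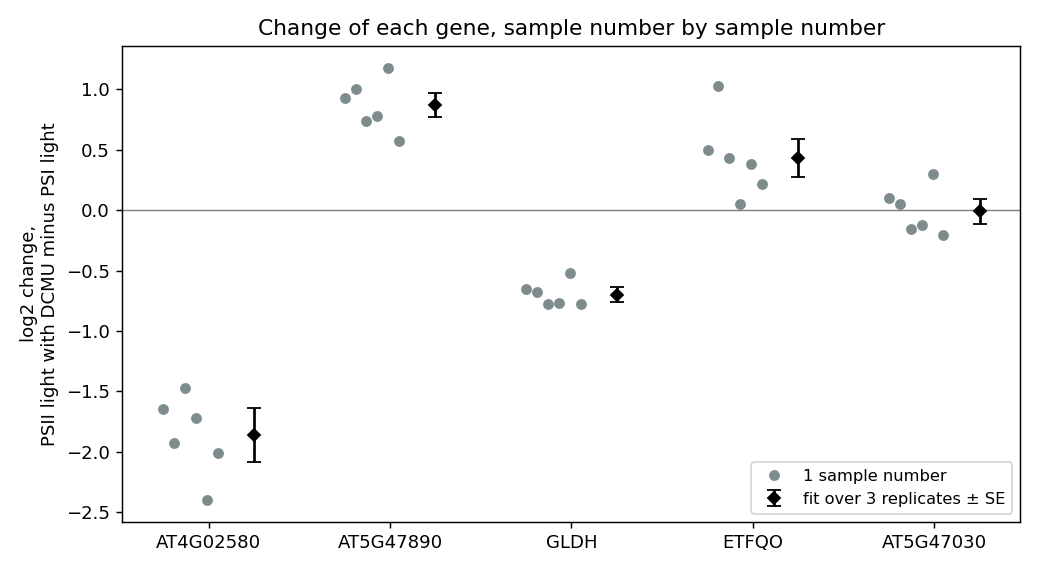
Log2 change (PSII light with DCMU minus PSI light, vertical axis) of each gene, with 1 grey point for each of the 6 sample numbers and a black diamond for the fit over 3 replicates ± SE. All 6 points lie below 0 for AT4G02580 and GLDH and above 0 for AT5G47890 and ETFQO, and 3 lie on each side for AT5G47030.

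GLDH was the only one of 11 listed genes of ascorbate synthesis that had a feature of its own. Under PSI light its intensity over 6 samples had a lowest value of 0.667, a median of 0.732 and a highest value of 0.789. Under PSII light with DCMU the lowest was 0.392, the median 0.454 and the highest 0.481. No sample of one group reached the other, and by replicate the groups did not overlap in 60.9% of all features. By replicate the values were 0.736, 0.707 and 0.733 under PSI light and 0.465, 0.413 and 0.466 under PSII light with DCMU. Replicate 2 was the lowest in both groups, and the SD over the log2 replicates, 0.03 under PSI light, was the smallest of the 5 genes in that group. The mean was 38.2% lower under PSII light with DCMU (0.726 ± 0.016 against 0.448 ± 0.0304, SD, n = 3). On the log2 scale GLDH fell by 0.70 ± 0.0639 (SE; limma, adjusted p = 0.00162), with differences of -0.78 to -0.52 over the 6 sample numbers.

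The fall of GLDH was -0.97 ± 0.0585 after quantile normalization and -0.91 ± 0.109 with each sample centred on its median, both still past the threshold. Its feature lies at place 16 of a run. Among the 1108 other features at places 1 to 96, 40.4% fell, against 22% of all features, and the 13 others at place 16 had a median change of -0.32. The mean that is taken out for a place includes GLDH itself and is not this median. With place taken out the change was -0.14 ± 0.0776 and the call ended (adjusted p = 0.201). With place and brightness taken out it was -0.25 ± 0.0749 (adjusted p = 0.0492). Of the 16 features within 10 feature numbers, 10 fell and 1 rose, with a median of -0.48, and 7 fell by more than GLDH. GLDH thus lay inside their range of -1.45 to 0.43. With the neighbours taken out the change was -0.19 ± 0.0918 (adjusted p = 0.147).

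ETFQO, which passes electrons from the electron transfer flavoprotein to ubiquinone, was the only one of 5 listed genes of this branch with a feature of its own. Its intensity over the 6 samples under PSI light had a lowest value of 0.437, a median of 0.608 and a highest value of 0.823. Under PSII light with DCMU the lowest was 0.741, the median 0.783 and the highest 1.07. The highest sample under PSI light lay above the lower ones under PSII light with DCMU. By replicate the values were 0.508, 0.639 and 0.730 under PSI light and 0.853, 0.748 and 0.904 under PSII light with DCMU. The replicate means of the groups did not overlap, the nearest being 0.730 and 0.748. Among all features 60.9% did not overlap, by any margin. The means were 0.625 ± 0.112 and 0.835 ± 0.0796 (SD, n = 3), a log2 change of 0.43 ± 0.158 with a 95% interval of 0.03 to 0.84, which did not pass (limma, adjusted p = 0.0763).

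The difference of ETFQO was positive for all 6 sample numbers but ranged from 0.05 to 1.03. Its samples also differed within technical pairs, by up to 0.53 on the log2 scale. This was not particular to ETFQO. The largest gap was 0.56 for AT4G02580, 0.51 for AT5G47890, 0.35 for AT5G47030 and 0.22 for GLDH. It passed without PSI replicate 3 (0.55 ± 0.142, adjusted p = 0.0436). With place taken out it passed as well (0.49 ± 0.14, adjusted p = 0.0431), but not when the pair number was also a block (adjusted p = 0.0851) or when brightness was taken out too (0.36 ± 0.14, adjusted p = 0.0962). ETFQO lies at place 79 of a run, where the 14 other features had a median change of -0.01. Among the 1108 other features at places 1 to 96, 40.5% fell and 8.03% rose, against 22% and 26.4% of all features. The 12 features within 10 feature numbers had a median change of -0.39, and 5 of them fell while 0 rose. With these neighbours taken out the change of ETFQO was 0.80 ± 0.159 and passed (adjusted p = 0.0134, and 0.0494 blocked on the pair number).

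AT5G47030 encodes a small subunit of the central stalk of the mitochondrial ATP synthase, which couples proton flow to the catalytic head. Under PSI light its intensity over 6 samples had a lowest value of 0.278, a median of 0.319 and a highest value of 0.417. Under PSII light with DCMU the lowest was 0.270, the median 0.325 and the highest 0.373. The samples of the groups overlapped over nearly their whole range. By replicate the values were 0.316, 0.372 and 0.295 under PSI light and 0.333, 0.336 and 0.306 under PSII light with DCMU. The means were 0.328 ± 0.0398 and 0.325 ± 0.0165 (SD, n = 3). The log2 change was -0.01 ± 0.101 with a 95% interval of -0.27 to 0.25 (limma, adjusted p = 0.993), and 3 of the 6 sample numbers were higher and 3 lower.

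This near-zero change depended on the scaling. After quantile normalization AT5G47030 fell by 0.56 ± 0.0617 (adjusted p = 0.00228), and with each sample centred on its median its change was -0.23 ± 0.124 (adjusted p = 0.152), where the median of all features moved from 0.04 to -0.18. Features of similar brightness, the third dimmest of 10 classes, had a median change of 0.54, and 46.9% of them rose. AT5G47030 lies at place 79 like ETFQO, and the 14 other features there, ETFQO among them, had a median change of 0.05. Of the 17 features within 10 feature numbers, 5 fell and 0 rose, with a median of -0.20. With the neighbours taken out the change was 0.23 ± 0.0806 (adjusted p = 0.0672), and 0.23 ± 0.039 when the pair number was also a block (adjusted p = 0.0286). Its sign was positive in these fits and with place taken out (0.05 ± 0.129), so no direction is given for this gene.

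AT5G47890 and AT5G47030 shared their deviations between samples. The deviations of their log2 values from the group means correlated at 0.72 over 12 samples, which belong to 6 technical pairs. For the other 9 pairs of genes this correlation lay between -0.36 and 0.30. The SD of their log2 ratio over replicates was 0.05 under PSI light and 0.04 under PSII light with DCMU, smaller than that of either gene alone (0.17 for both under PSI light, 0.09 and 0.08 under PSII light with DCMU). This pair was singled out after its values were seen. Such a correlation was not particular to it. The deviations of AT5G47890 correlated at 0.84 with those of AT4G08940, 0.83 with AT1G07040 and 0.75 with AT5G04600. Those of AT5G47030 correlated at 0.70 with AT5G66780. These genes were picked as the profiles most like AT5G47890 or AT5G47030 over the same 12 samples, which favours high values. The share of all features that reach such values was not computed.

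**Figure D3:**
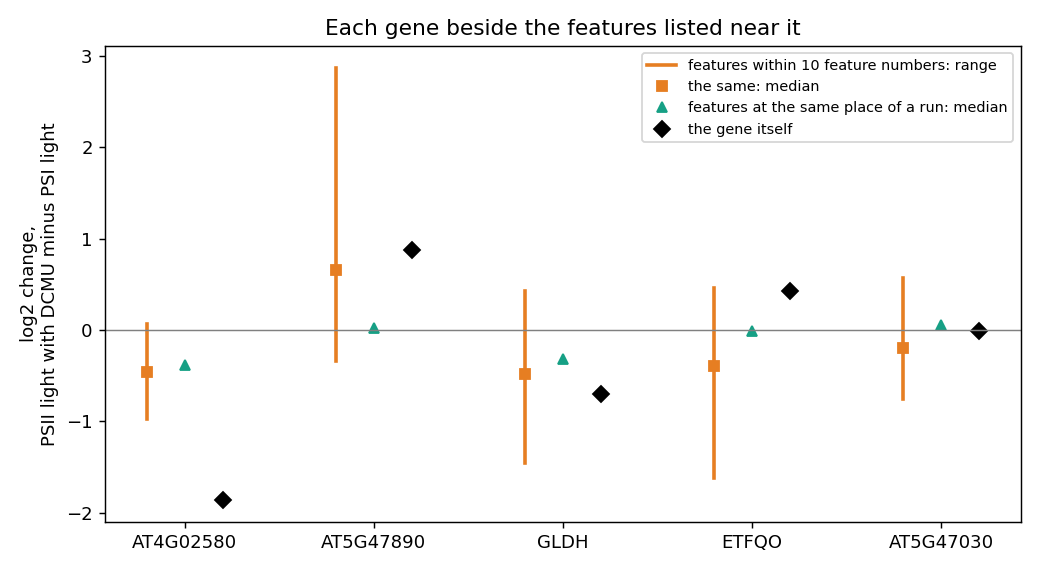
Log2 change (PSII light with DCMU minus PSI light, vertical axis) of each gene (black diamond) beside the median (orange square) and range (orange line) of the features within 10 feature numbers and the median of the features at the same place of a run (green triangle). AT4G02580 at -1.86 lies below the range of its neighbours (-0.97 to 0.06), while AT5G47890 and GLDH lie inside theirs.

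Other genes of these pathways were hardly represented by features of their own. The lists held 186 genes, covering the respiratory complexes, the alternative dehydrogenases and oxidases, the tricarboxylic acid cycle, mitochondrial carriers, photorespiration in mitochondria, ascorbate synthesis and recycling, and the nuclear genes of the chloroplast ATP synthase. Of these, 6 had a feature paired with 1 gene, namely the 5 genes above and AT2G34050, and 13 more were found only on features paired with several genes, which are not named. Complex I had 2 of 42 listed subunits and the mitochondrial ATP synthase 2 of 17 listed genes, while 0 of the listed genes of complexes II, III and IV had such a feature. Of the 6, 1 rose, 2 fell and 3 did not pass, with a median log2 change of -0.15. Over all features 26.4% rose and 22% fell, with a median of 0.04. The calls among the 6 are those already given for the 5 genes.

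AT2G34050 is annotated as an assembly factor of the catalytic head of the mitochondrial ATP synthase, of the type known from yeast as Atp11. Its intensity by replicate was 0.804, 0.603 and 0.744 under PSI light and 0.614, 0.515 and 0.603 under PSII light with DCMU. The lowest replicate under PSI light lay below the highest under PSII light with DCMU. The log2 change was -0.30 ± 0.139 (SE, n = 3; limma, adjusted p = 0.132). It passed in the fit blocked on the pair number (adjusted p = 0.0312), after quantile normalization (-0.50, adjusted p = 0.0223) and with each sample centred on its median (-0.52, adjusted p = 0.0204). With place taken out its sign was positive (0.20 ± 0.0716, adjusted p = 0.0751).

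Profiles most like each gene were sought among 629 features paired with 1 gene and above the floor in all samples, by the Pearson correlation of log2 intensity over the 12 samples, which mainly follows the difference between the groups and shares technical pairs. For AT4G02580 they were AT2G23070, AT3G54930 and AT4G27390 (0.963 to 0.966), with log2 changes of -0.72, -1.22 and -0.60. For AT5G47890 they were AT4G08940, AT1G07040 and AT5G04600 (0.965 to 0.982), with log2 changes of 0.82, 0.68 and 1.09. For GLDH they were AT5G19750, the plastid protein translocation gene SECE1 (AT4G14870) and AT4G35980 (0.971 to 0.981), with log2 changes of -1.45, -0.74 and -1.44. All 9 passed the test (limma, adjusted p = 0.000321 to 0.00919), beside 48.5% of all features. They were picked for following genes that separate the same groups in the same samples, so their passing was largely set by that choice.

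The other genes had looser matches. For ETFQO they were AT5G44520, AT2G24810 and AT5G11650 (0.84 to 0.856), with log2 changes of 0.37, 0.25 and 1.03, of which AT2G24810 did not pass (adjusted p = 0.107). For AT5G47030 they were AT5G66780, AT1G51350 and IQD22 (0.638 to 0.675), with changes of -0.09, -0.08 and -0.06, none past the threshold (limma, adjusted p = 0.594 to 0.863). The features of AT5G44520 and AT5G11650 both stood at place 225 of their runs.

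**Figure D4:**
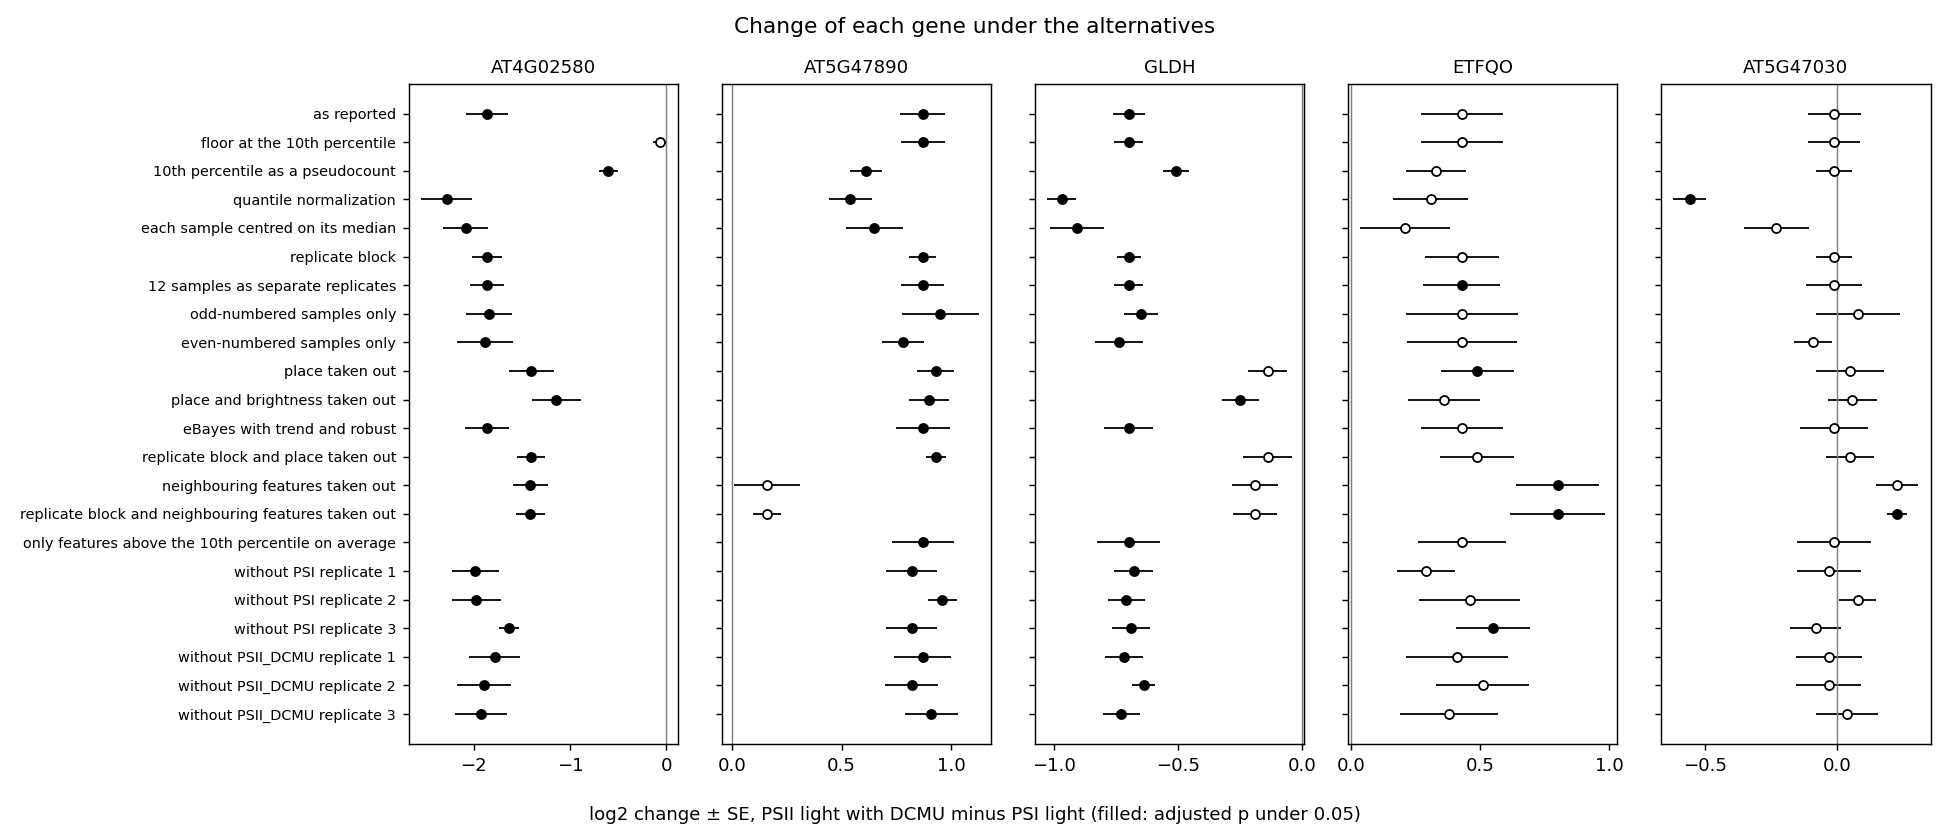
Log2 change ± SE (horizontal axis, PSII light with DCMU minus PSI light) of each gene as reported and under each alternative (rows), with filled points where the adjusted p was under 0.05. The points of AT4G02580, AT5G47890, GLDH and ETFQO stay on 1 side of 0 in all rows, and those of AT5G47030 lie on both sides, from -0.56 to 0.23.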

How the data were processed

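Per the labels, total RNA of 12 samples was measured on an expression array. The authors deposited 1 intensity per feature and sample on a linear scale. How it was made (scanner, background correction, scaling) and the genome build are not given in the sources used here. Values ran from 0 to 100 and were kept as deposited, with no column of another sample. Values under the 1st percentile of the positive intensities (0.0431) were raised to it (4.74% of all), and log2 was taken. Names come from the platform's gene table (exactly 1 gene for 692, several for 870, none for 1877), and 690 matched the gene table of the assembly TAIR10.1. A feature can detect related genes.

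Deviations from group means correlated at 0.38 to 0.66 within the pairs 1-2, 3-4 and 5-6 and at -0.51 to -0.18 between other samples of a group, so pairs were averaged on the log2 scale (on the linear scale for printed intensities). Same-numbered replicates of the 2 groups correlated at 0.29 to 0.36 and others at -0.33 to 0, so the pair numbers also pair the groups. No label states what the numbers stand for. The groups were compared with limma 3.58.1 (lmFit, eBayes; R 4.3.3, figures with Python 3.11.15 and matplotlib 3.10.9), without a block, two-sided, adjusted by Benjamini-Hochberg over 3439 features at 0.05. The fit was also run on simulated data with independent noise. These had no floor, no pairing and no correlation between features, so they cannot show how the fit behaves under those limits. Place is the position in runs of 3 times 96 feature numbers. For each replicate, the mean of the features at a place, less the mean over all places, was taken out. Both means used only features above the floor in all 12 samples. The mean at a place thus includes the gene itself where it stayed above the floor. Neighbours are the features within 10 feature numbers, and their median deviation was taken out. Named were the 5 genes, the measured genes of the pathway lists and, for each of the 5, the 3 features most like it. The genes and lists were chosen with earlier results of these data known.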

Additional observations from a re-analysis of the deposited data

How the results depend on the processing

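Of 20 or 21 alternatives per gene, AT4G02580 kept direction and call in 19 of 20, AT5G47890 in 19 of 21 and GLDH in 17 of 21, ETFQO stayed not called in 16 of 21, and AT5G47030 kept both in 12 of 21. Taking out neighbours, and joining the block with place or neighbours taken out, were chosen after seeing the data. AT4G02580 stood at -0.07 with a floor at the 10th percentile, where both groups lay at or near the floor. AT5G47890 stood at 0.16 with neighbours taken out, with or without the pair number as a block. GLDH stood at -0.14 with place and at -0.19 with neighbours taken out, each with or without the block. ETFQO passed at 0.43 with 12 samples as separate replicates, at 0.49 with place taken out (not with the block as well, adjusted p = 0.0851) and at 0.80 with neighbours taken out, with or without the block. AT5G47030 passed at -0.56 after quantile normalization and, in the other direction, at 0.23 with neighbours taken out and the block (limma, adjusted p = 0.0286). Its sign turned at 0.08 with odd-numbered samples only, at 0.05 with place taken out (with or without the block), at 0.06 with place and brightness taken out, and at 0.23 with neighbours taken out (with or without the block). Apart from the floor, the cause was not tested.

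Leaving out 1 replicate gave -1.98 to -1.63 for AT4G02580, 0.82 to 0.96 for AT5G47890, -0.73 to -0.64 for GLDH, 0.29 to 0.55 for ETFQO and -0.08 to 0.08 for AT5G47030. ETFQO passed without PSI replicate 3, and AT5G47030 turned sign without PSI replicate 2 (0.08) or PSII_DCMU replicate 3 (0.04). The pair number as a block alone changed no call of the 5 genes and gave 1656 called features. Called features numbered 1138 to 2294 over all alternatives. The share of rises among calls was 54.5% as deposited, 41.5% after quantile normalization, 40.9% with samples centred on their medians, 65.4% with place and 50.7% with neighbours taken out. The unstated background level limits what can be said of dim features such as AT4G02580.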
